A study of Mus musculus with 6 samples.

Results

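NR4A receptors and 7 other genes of the early response to cell activation were followed on all 6 arrays of mouse bone marrow B cells. Every probe set with a single gene symbol from this list was taken, which gave 24 probe sets of 10 genes among 45101 probe sets in all. The NR4A receptors have 10 of them: 1 for Nr4a1, 6 for Nr4a2 and 3 for Nr4a3. The other 14 belong to Zfp36 (1), Btg2 (2), Klf2 (1), Klf6 (5), Ier2 (1), Ier5 (3) and Cd69 (1). The rule uses gene symbols, not signals.

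The cells came from untreated C57BL/6 mice of mixed sex, aged 8 to 12 weeks. B cells were enriched by removing cells with CD3, Ter119, CD11b, DX5 or Gr1 on their surface and were then sorted on the light chain. The groups were TAK1-deficient Igκ+ cells (labelled mb-1/TAK1f/f), wild-type Igλ+ cells and wild-type Igκ+ cells (both labelled mb-1/TAK1+/+), with 2 arrays each. TAK1, the product of Map3k7, is a kinase between receptors and the NF-κB and MAP kinase pathways. The mb-1 gene is Cd79a, which is active in the B lineage. It stands in the labels of all 3 groups, which do not say what it drives or how complete the loss of TAK1 was. Of 6 probe sets of Map3k7, the targeted gene, 4 were lower and 0 higher in TAK1-deficient than in wild-type Igκ+ cells by the test described below. The 4 lay in deciles 8 to 10 of wild-type level, counted from the dimmest, where 40.2% to 86.0% of all probe sets were called lower. The brightest, 1419988_at, had 346 and 599 in TAK1-deficient Igκ+ cells, 2149 and 1957 in wild-type Igλ+ cells and 2196 and 1805 in wild-type Igκ+ cells (log2 difference -2.09 ± 0.29 SE). The 25th percentile of all probe sets in its decile was -2.02. Whether any of the 6 lies in the deleted stretch is not known here.

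Immediate-early response genes are transcribed within minutes of a stimulus, without new protein synthesis. Nr4a1, Nr4a2 and Nr4a3 encode the orphan nuclear receptors Nur77, Nurr1 and Nor1, and Nr4a1 is widely used as a reporter of antigen receptor signalling in lymphocytes. Zfp36 encodes tristetraprolin, which binds AU-rich elements and brings the deadenylase complex to messenger RNA, and Btg2 encodes an antiproliferative protein that also binds deadenylases. Klf2 encodes a transcription factor of lymphocyte quiescence and trafficking, and Cd69 an early activation receptor at the cell surface that holds lymphocytes in tissue by removing the S1P receptor from the membrane.

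The TAK1-deficient arrays stood apart from the other 4 before any gene was considered. Over all probe sets, log2 signals had a Pearson's r of 0.893 within the TAK1-deficient pair, 0.928 to 0.952 within the 4 wild-type arrays and 0.419 to 0.482 across genotypes, as a description. The median signal was 323 to 324 for TAK1-deficient cells and 44.9 to 59.1 for wild-type cells, and the geometric mean of the spiked controls was 41197 to 47043 against 3985 to 4608. The 3′ to 5′ ratio of Actb signal was 4.18 to 6.28 against 1.25 to 1.58. Dim probe sets were higher and bright ones lower on the TAK1-deficient arrays: the median log2 difference from wild-type Igκ+ cells was 3.12 in the lowest decile of wild-type level and -1.46 in the highest. Array state and genotype cannot be told apart in this design. In the highest decile 86.0% of probe sets were called lower and in the one below it 75.4%, with a median of -1.33 there, so a lower value of a bright gene is the common case. Of the 10 B cell markers listed, 9 had a probe set, and none of these was at the level of the unspiked controls on any array. That level is the 95th percentile of the controls that were not added, 75.7 to 77.7 for TAK1-deficient cells and 10.3 to 17.4 for wild-type cells.

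In TAK1-deficient against wild-type Igκ+ cells 4 Nr4a2 and 2 Nr4a3 probe sets were called higher and the other 7 genes lower. Nr4a1 was not called, nor was 1433422_at, the Nr4a2 probe set of highest wild-type level. Of the 10 NR4A probe sets 6 were higher, near the 56.8% of all probe sets, and 0 lower. Apart from Nr4a1 and the Nr4a3 probe set 1438796_at, they lay in wild-type deciles 2 to 5. There 82.7% to 91.5% of all probe sets were called higher. Of the 14 probe sets of the other 7 genes 0 were higher and 12 lower, and each of the 7 genes had at least 1 among the 12. These counts use limma over all 45037 probe sets that are not controls, with a Benjamini-Hochberg adjusted p of at most 0.05, and 56.8% of all probe sets were called higher and 21.8% lower (78.6% in either direction). The median log2 difference was 2.92 for NR4A probe sets, -2.25 for the others and 1.53 for all probe sets. At an unadjusted p under 0.05 there were 18 members, against 80.1% of all probe sets. Groups did not overlap for 21 of the 24 members (8 higher and 13 lower), against 90.3% of all probe sets (63.9% higher and 26.5% lower), so non-overlap does not set the members apart.

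**Figure D1:**
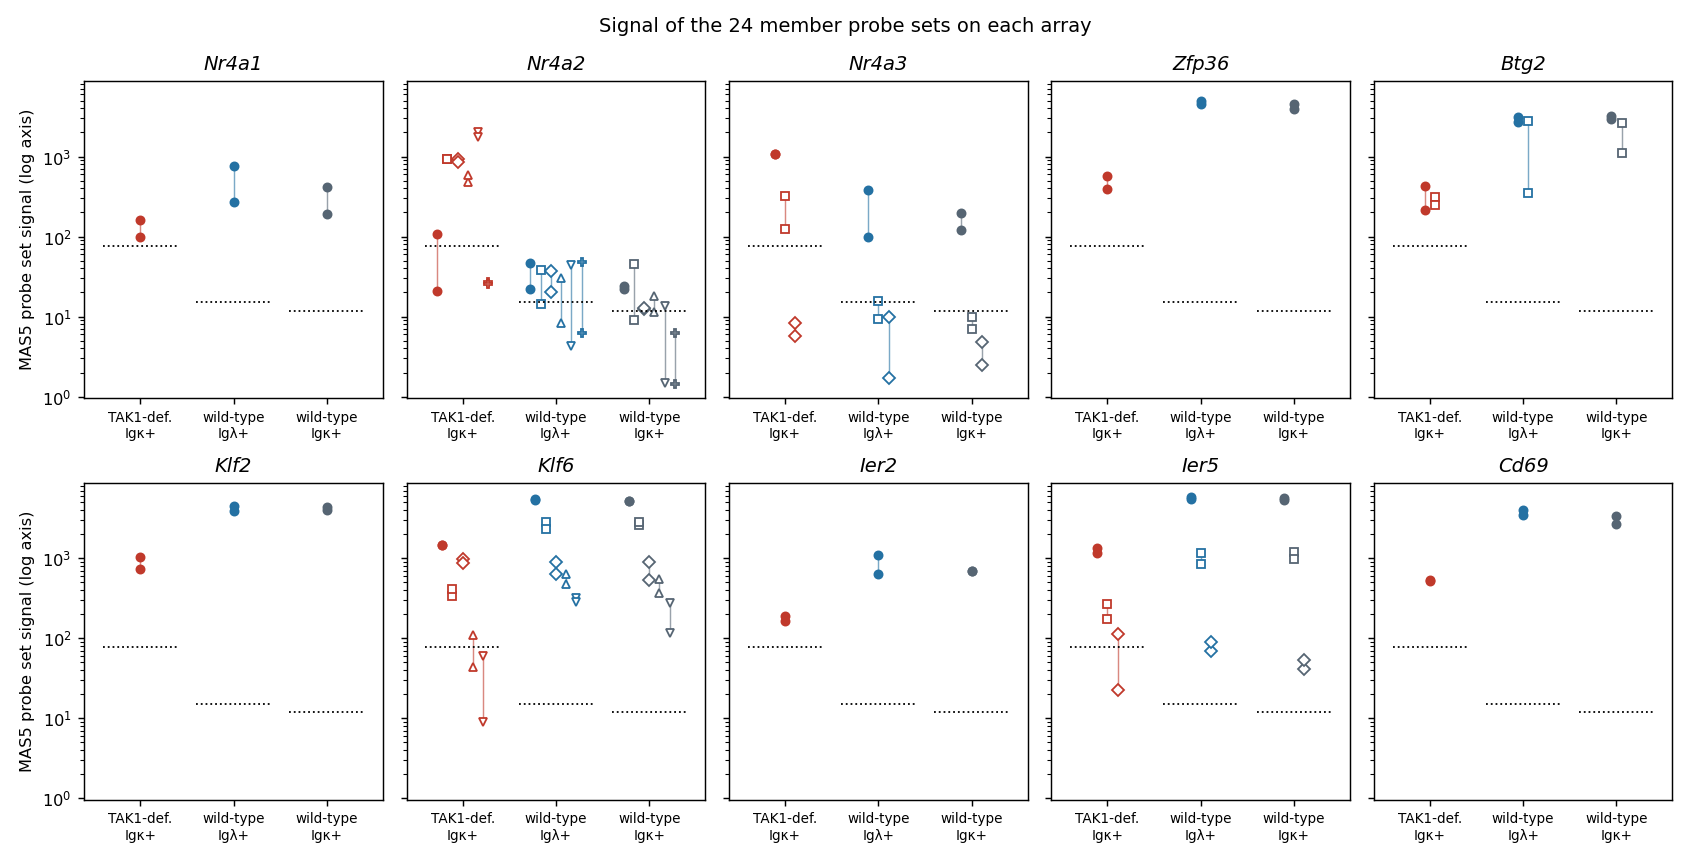
Signal of each member probe set (log axis) on the 2 arrays of each group, 1 panel a gene. Each marker shape is a probe set, filled for the one with the highest wild-type level, a thin line joins the 2 arrays, and the dotted line is the mean of the 2 arrays' 95th percentile of unspiked controls. Zfp36, Klf2, Ier2 and Cd69 are lower on both TAK1-deficient arrays than on all 4 wild-type arrays, while 4 of the 6 Nr4a2 probe sets are higher.

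Set against probe sets of the same wild-type level, the other 7 genes were on the low side and the NR4A probe sets on both sides. Of the 14 probe sets of the other genes, 12 had a log2 difference below the 25th percentile of their decile, 1 lay above the 75th percentile and 1 between, where all probe sets have 25% below, 25% above and 50% between by construction. Their median distance from the decile median was -1.24. Of the 10 NR4A probe sets 5 lay above the 75th percentile, 3 below the 25th and 2 between. The members were chosen with earlier results of these data known, and the 14 probe sets stand for only 7 genes, so these counts are a description. The 12 include Ier5 1417613_at, which was not called. Klf6 1459718_x_at, also among the 12, was at the level of the unspiked controls on both TAK1-deficient arrays.

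**Figure D2:**
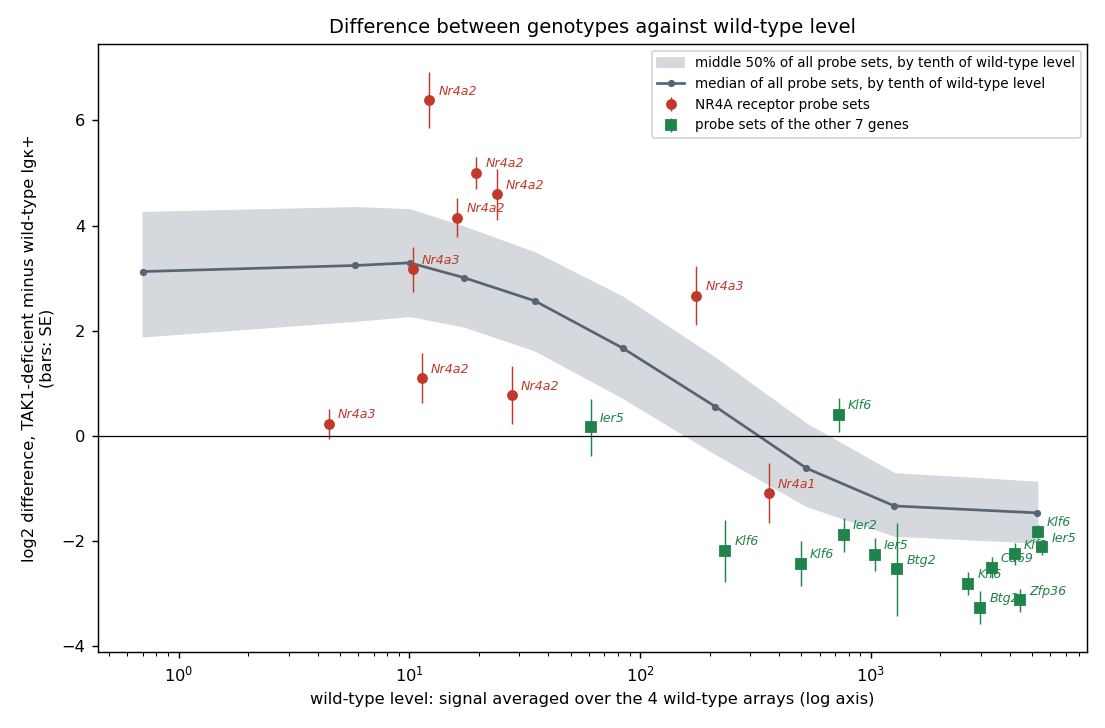
Log2 difference between TAK1-deficient and wild-type Igκ+ cells (vertical) against wild-type level (horizontal, log axis; the mean of log2(signal + 16) over the 4 wild-type arrays turned back to signal). The line and band are the median and middle 50% of all probe sets in each decile of level; points are the 24 members with their SE. The green points of the other 7 genes lie mostly below the band, and 5 NR4A points lie above it.

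Nr4a1 is read by 1 probe set, 1416505_at. Its signal was 159 and 98.5 in TAK1-deficient Igκ+ cells, 770 and 272 in wild-type Igλ+ cells and 413 and 194 in wild-type Igκ+ cells. Both TAK1-deficient values lay below all 4 wild-type values, yet the wild-type replicates were themselves far apart. The log2 difference from wild-type Igκ+ cells was -1.08 ± 0.57 (SE) and missed the threshold (limma, adjusted p = 0.116). It lay inside the middle 50% of its decile, whose median was -0.61. The call depends on the setting. Nr4a1 was called lower in 5 of 17 alternatives, among them quantile normalization (log2 difference -3.08), equal medians (-3.41), scaling on the spiked controls (-3.99) and both wild-type groups taken as one (-1.42), with adjusted p from 0.000118 to 0.0258 in limma. With the level adjustment, which removes by lowess the trend with wild-type level from both TAK1-deficient arrays, the value was -1.001, and without wild-type Igκ+ replicate 1 it was -0.57. Neither passed.

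Nr4a2 was close to the unspiked controls on the wild-type arrays and bright on the TAK1-deficient arrays at 4 of its 6 probe sets. Probe set 1447863_s_at had 2045 and 1736 in TAK1-deficient Igκ+ cells, 44.4 and 4.23 in wild-type Igλ+ cells and 13.5 and 1.49 in wild-type Igκ+ cells. Its log2 difference was 6.39 ± 0.54 (SE; limma, adjusted p = 3.78e-05), above the 95th percentile of its decile (5.79). Probe set 1450749_a_at had 941 and 924 in TAK1-deficient, 38.0 and 14.4 in wild-type Igλ+ and 45.8 and 9.04 in wild-type Igκ+ cells. Probe set 1450750_a_at had 945 and 859 in TAK1-deficient cells, against 37.4 and 20.3 in wild-type Igλ+ and 12.6 and 12.7 in wild-type Igκ+ cells. At 1455034_at the signals were 480 and 582 in TAK1-deficient, 30.7 and 8.22 in wild-type Igλ+ and 18.2 and 11.5 in wild-type Igκ+ cells. These 3 rose by log2 differences of 4.59, 5.001 and 4.15, and each lay above the 75th percentile of its decile.

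The remaining Nr4a2 probe sets, 1433422_at and 1433423_at, did not show this. The first had 20.6 and 107 in TAK1-deficient cells, against 46.1 and 22.4 on the wild-type Igλ+ and 23.98 and 22.35 on the wild-type Igκ+ arrays. The second had 27.2 and 25.3, at the control level on both TAK1-deficient arrays, against 48.1 and 6.23 in wild-type Igλ+ and 6.30 and 1.45 in wild-type Igκ+ cells. Their log2 differences were 0.78 ± 0.56 and 1.10 ± 0.48 (SE) and missed the threshold, and both lay below the 25th percentile of their decile. Without TAK1-deficient replicate 1, on which 1433422_at was at the control level, this probe set passed (1.65). The other, 1433423_at, passed with a pseudocount of 1 (2.69) and when only the 4 arrays compared were fitted (1.10), while the level adjustment turned both and they passed as lower (-1.87 and -2.06). The 4 called probe sets kept their direction and their call in all 15 or 16 alternatives in which each was fitted, with log2 differences down to 1.17. Each of the 4 was at the control level on 1 or 2 of the 4 wild-type arrays, so the folds are taken against signals near background.

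Nr4a3 gave mixed readings. Probe set 1438796_at had 1075 and 1062 in TAK1-deficient Igκ+ cells, 377 and 99.9 in wild-type Igλ+ cells and 120 and 199 in wild-type Igκ+ cells. The log2 difference of 2.67 ± 0.57 (SE; limma, adjusted p = 0.00361) stands beside a decile median of 0.56. Probe set 1421080_at rose by 3.17 ± 0.43, with 325 and 125 in TAK1-deficient, 15.7 and 9.45 in wild-type Igλ+ and 7.09 and 9.86 in wild-type Igκ+ cells, and it sat near the median of its decile (3.29). It was at the control level on 3 of the 4 wild-type arrays, both Igκ+ arrays among them, so the difference is taken against a signal not above background. Probe set 1421079_at was at the control level on all 6 arrays. Scaling on the spiked controls turned 1438796_at to -0.64, and the level adjustment turned 1421080_at to -0.030, neither past the threshold. The rise of Nr4a3 thus depends on the scaling.

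**Figure D3:**
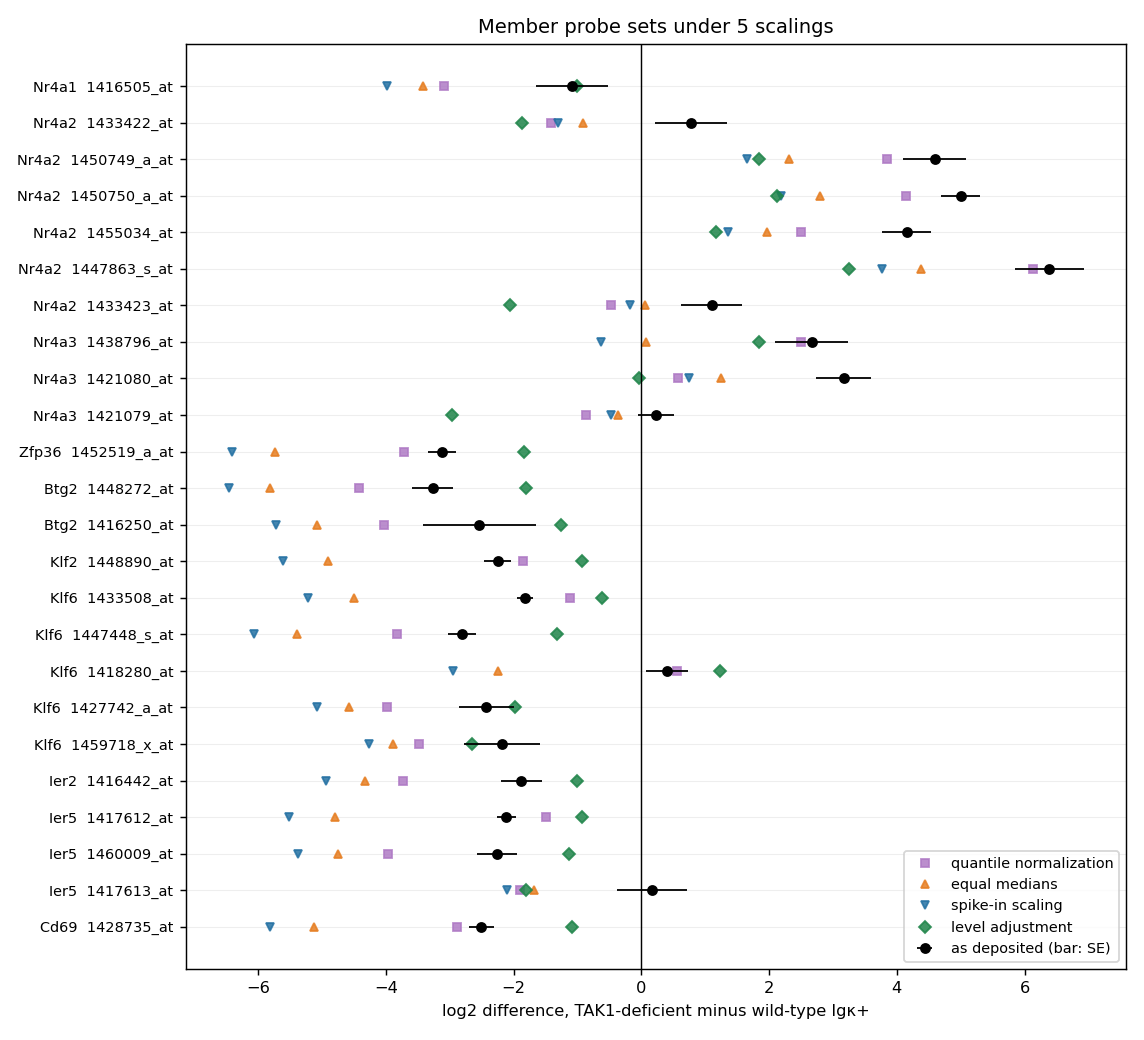
Log2 difference between TAK1-deficient and wild-type Igκ+ cells for the 24 member probe sets as deposited (black, with SE) and under 4 other scalings. The 4 called Nr4a2 probe sets stay to the right of 0 under each, from 1.17 to 6.39, the 12 called probe sets of the other genes stay to the left, and the 2 called Nr4a3 probe sets do not keep 1 side.

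The promoters of the NR4A receptors are shown because these genes are known to respond to cAMP and calcium through the cAMP response element, and because their probe sets differed in call here. RefSeq sequences (GRCm38.p6) were found for 8 of the 10 members (those of Ier2 and Cd69 were not matched), and the 250 bases before the start were searched on both strands. The core of the element, TGACG, was found 4 times in each of the 3 NR4A promoters, and 0.137% of 32851 promoter windows of that length hold it at least 4 times. The cut of 4 equals the NR4A counts, and the windows include those of the members and were not matched for base composition. The share is therefore a description. At least 1 core was found in 5 of the 8 members and in 17.8% of all windows. The full palindrome TGACGTCA, which counts as a core on each strand, was found in Btg2 alone among the members and in 1.55% of windows. Zfp36, Klf6 and Ier5 had no core. The AP-1 motif TGANTCA, the NR4A motif AAAGGTCA and the NF-κB site were found in 0 of the 8 windows (6.75%, 1.34% and 5.93% of all windows), and the CArG box in that of Zfp36 (1.47%). A match is letters in a window only. In the sequences below, written 5′ to 3′ on the strand of the gene, capitals mark TGACG or its reverse complement, for chr15:101266596-101266845 (+), chr2:57124004-57124253 (-), chr4:48045055-48045304 (+) and chr1:134079156-134079405 (-).
Nr4a1: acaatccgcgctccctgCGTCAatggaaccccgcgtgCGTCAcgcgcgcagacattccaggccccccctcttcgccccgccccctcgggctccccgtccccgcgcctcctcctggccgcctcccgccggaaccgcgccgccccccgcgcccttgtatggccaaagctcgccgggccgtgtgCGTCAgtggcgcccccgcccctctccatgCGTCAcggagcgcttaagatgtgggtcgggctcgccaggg
Nr4a2: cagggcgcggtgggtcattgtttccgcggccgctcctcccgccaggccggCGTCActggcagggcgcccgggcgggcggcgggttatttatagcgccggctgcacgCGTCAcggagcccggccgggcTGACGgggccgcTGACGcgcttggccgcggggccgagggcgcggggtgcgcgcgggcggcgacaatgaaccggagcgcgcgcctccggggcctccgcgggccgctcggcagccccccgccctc
Nr4a3: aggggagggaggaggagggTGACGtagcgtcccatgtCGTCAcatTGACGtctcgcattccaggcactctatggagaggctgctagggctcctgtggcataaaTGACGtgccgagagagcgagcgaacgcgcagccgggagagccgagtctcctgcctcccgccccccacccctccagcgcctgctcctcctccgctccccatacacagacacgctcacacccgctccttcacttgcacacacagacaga
Btg2: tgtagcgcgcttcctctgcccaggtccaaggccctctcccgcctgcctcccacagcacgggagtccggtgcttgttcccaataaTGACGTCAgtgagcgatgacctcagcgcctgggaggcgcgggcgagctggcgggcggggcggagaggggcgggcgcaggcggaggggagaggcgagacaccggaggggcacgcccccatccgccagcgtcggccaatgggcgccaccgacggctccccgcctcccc

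Zfp36, the gene of tristetraprolin, was lower in TAK1-deficient cells by more than its decile. Its probe set 1452519_a_at had 393 and 564 in TAK1-deficient Igκ+ cells, 4876 and 4475 in wild-type Igλ+ cells and 4553 and 3938 in wild-type Igκ+ cells. The groups did not overlap, and Zfp36 fell by 3.13 ± 0.22 (SE) in log2 units (limma, adjusted p = 1.75e-05), against a median of -1.46 in its decile. It was called lower in all 17 alternatives, with log2 differences from -6.42 to -1.83.

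Btg2 was read by a pair of probe sets that behaved differently on the wild-type arrays. Probe set 1448272_at had 216 and 428 in TAK1-deficient cells, 2700 and 3100 in wild-type Igλ+ cells and 2921 and 3221 in wild-type Igκ+ cells, a log2 difference of -3.27 ± 0.32 (SE; limma, adjusted p = 7.05e-05), below the 25th percentile of its decile (-2.02). It was called lower in all 17 alternatives. Probe set 1416250_at had 315 and 250 in TAK1-deficient, 347 and 2764 in wild-type Igλ+ and 1116 and 2609 in wild-type Igκ+ cells. Its log2 difference was -2.54 ± 0.88 (adjusted p = 0.0309 in limma), and the call was lost with the level adjustment (-1.26) and whenever any 1 of the 4 arrays compared was left out (-3.14 to -1.93, limma adjusted p from 0.0516 to 0.179). Wild-type Igλ+ replicate 1, where this probe set was at 347, was near the TAK1-deficient level, while the other probe set of the gene differed by 0.20 on the log2 scale between the Igλ+ replicates (68.0% of probe sets differed by as much). Between the same replicates 1416250_at differed by 2.94 on the log2 scale. Of the 19664 probe sets with a wild-type mean of at least 100, on which both shares rest, 0.946% differed by as much.

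Klf2, whose product holds lymphocytes in a resting state and activates the S1P receptor gene S1pr1, had 732 and 1046 in TAK1-deficient Igκ+ cells, 4552 and 3881 in wild-type Igλ+ cells and 4014 and 4426 in wild-type Igκ+ cells. It fell by 2.25 ± 0.21 (SE) in log2 units (limma, adjusted p = 6.07e-05) and by 0.93 with the level adjustment, where it also passed. Its value and that of Cd69 below lay under the 25th percentile of the same decile. Klf6, a related zinc finger factor, had 1470 and 1449 in TAK1-deficient, 5526 and 5302 in wild-type Igλ+ and 5149 and 5246 in wild-type Igκ+ cells at 1433508_at, a log2 difference of -1.82 ± 0.13 that lay within the middle 50% of its decile. Of its other 4 probe sets, 3 fell by log2 differences of -2.19 to -2.81, each below the 25th percentile of its decile. One of these, 1459718_x_at, did not pass without TAK1-deficient replicate 1 (-1.38) or without wild-type Igκ+ replicate 1 (-1.61). It was at the control level on both TAK1-deficient arrays, and 1427742_a_at was on TAK1-deficient replicate 1, so their folds rest on signals near background. The exception was 1418280_at, with 987 and 860 in TAK1-deficient, 902 and 637 in wild-type Igλ+ and 540 and 887 in wild-type Igκ+ cells, where the groups overlapped and the log2 difference was 0.40 ± 0.32. Probe sets of this gene therefore disagree, and the one that goes the other way was called higher with the level adjustment (1.23) and lower with equal medians (-2.24).

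The immediate-early genes Ier2 and Ier5 encode related nuclear proteins, and IER5 is known to act on the heat shock factor HSF1. Ier2 had 189 and 167 in TAK1-deficient Igκ+ cells, 1088 and 640 in wild-type Igλ+ cells and 701 and 692 in wild-type Igκ+ cells. It fell by 1.88 ± 0.33 (SE) in log2 units (limma, adjusted p = 0.00126). Ier5 had 1153 and 1352 in TAK1-deficient, 5800 and 5437 in wild-type Igλ+ and 5625 and 5309 in wild-type Igκ+ cells at 1417612_at, a log2 difference of -2.12 ± 0.15. A further Ier5 probe set, 1460009_at, fell by 2.26 ± 0.31. The remaining one, 1417613_at, had at most 114 on any array and a log2 difference of 0.16 ± 0.55, which did not pass. Ier2 and both called Ier5 probe sets lay below the 25th percentile of their decile and were called lower in every alternative in which they were fitted.

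Cd69 had 530 and 512 in TAK1-deficient Igκ+ cells, 3954 and 3433 in wild-type Igλ+ cells and 3412 and 2704 in wild-type Igκ+ cells. The groups did not overlap. Cd69 fell by 2.51 ± 0.20 (SE) in log2 units (limma, adjusted p = 2.89e-05) and was called lower in all 17 alternatives, by 1.08 with the level adjustment. In bulk RNA of sorted cells, fewer cells with a transcript and less of it per cell cannot be told apart, for this and every member.

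Related genes were counted beside the members, with the probe set of highest wild-type level for each gene, and the gene lists were chosen with earlier results of these data known. Of 45 other immediate-early genes 22 fell and 7 rose in TAK1-deficient Igκ+ cells, with a median log2 difference of -0.87. Against the deciles of the single genes, 11 of the 45 lay below the 25th percentile and 13 above the 75th, close to the 25% of all probe sets on each side. The 7 that rose were Nfkbia, Jund, Klf4, Plk2, Fosl2, Maff and Atf3, of which the last 5 were named after their values were seen. Among the 4 of highest wild-type level, Nfkbia, the gene of the NF-κB inhibitor IκBα, had 10587 and 12033 in TAK1-deficient cells, against 7991 and 7112 in wild-type Igκ+ cells (log2 difference 0.58 ± 0.10 SE). Jund, an AP-1 subunit, had 12296 and 13982 against 6505 and 8055 (0.86 ± 0.12). Cd83, an activation antigen, had 739 and 883 against 5945 and 5759 (-2.83 ± 0.15), and Mcl1, a survival gene, had 6903 and 8571 against 9526 and 9364 (-0.30 ± 0.12). The list thus holds bright genes that rose, on arrays where 4.11% of the brightest decile were called higher.

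The remaining lists are to be read against the shares of all probe sets as well. In the highest decile 86.0% were called lower with a median of -1.46, and in the one below 75.4% with a median of -1.33. Of 18 quiescence genes 14 fell and 1 rose, with a median log2 difference of -1.40. Of these 18, 11 were in the highest decile and 6 in the one below, 5 lay below the 25th percentile of their decile and 3 above the 75th, and the median distance from the decile median was 0.06. Ets1 had 1428 and 1976 in TAK1-deficient and 6656 and 7216 in wild-type Igκ+ cells (-2.03 ± 0.18 SE), and Tob2, a relative of Btg2, had 2628 and 2672 against 5479 and 5198 (-1.01 ± 0.12). Foxp1 (-0.23 ± 0.20) and Btg1 (-0.05 ± 0.18), the closest relative of Btg2, did not pass. Foxp1 and Btg1 lay above the 75th percentile of the highest decile (-0.88), Ets1 below its 25th percentile (-2.02) and Tob2 between the quartiles. Of 30 mRNA decay genes 24 fell and 1 rose, with a median of -1.13. Here 20 were in the highest decile and 8 in the one below, 4 lay below the 25th percentile and 8 above the 75th, and the median distance was 0.28. Of the relatives of Zfp36, Zfp36l1 had 4621 and 5909 in TAK1-deficient cells against 8389 and 6983 in wild-type Igκ+ cells (-0.55 ± 0.17), above the 75th percentile of its decile (-0.88), and Zfp36l2 had 1607 and 2015 against 5539 and 6213 (-1.70 ± 0.18), between the quartiles. Both passed as lower, and their difference from Zfp36 was not tested. Cnot2, a subunit of the deadenylase complex, fell by 0.88 ± 0.15, also between the quartiles. Of 17 heat shock and stress genes 12 fell and 3 rose, with a median of -1.09. Here 11 were in the highest decile, 5 lay below the 25th percentile and 6 above the 75th, and the median distance was 0.11. Hspa8 rose (18059 and 19328 against 8499 and 9933), Hspa5 and Hsp90aa1 had log2 differences of -1.78 and -0.65, and Hspe1 fell by 2.28 ± 0.21.

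The second comparison asks whether the light chain goes with these genes in wild-type cells. Of the 24 members 0 were called in wild-type Igλ+ against wild-type Igκ+ cells (limma, Benjamini-Hochberg), as were 0% of all probe sets, and at an unadjusted p under 0.05 the members had 0 and all probe sets 1.98%. Log2 differences ran from -0.78 to 0.94 with a median of 0.18, against 0.07 over all probe sets. Groups did not overlap for 5 members, all of them higher in Igλ+ cells, against 27.1% of all probe sets (19.3% higher and 7.88% lower). Klf2 was nearly equal, with a log2 difference of -0.0043 ± 0.21 (SE), as were Ier5 at 1417612_at (0.04 ± 0.15), Klf6 at 1433508_at (0.06 ± 0.13) and Zfp36 (0.14 ± 0.22). Nr4a1 had 770 and 272 in Igλ+ and 413 and 194 in Igκ+ cells, a log2 difference of 0.67 ± 0.57. These groups overlap, and the value was 1.39 without Igλ+ replicate 2 and -0.06 without Igλ+ replicate 1.

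For most member probe sets, several of them of the same gene, the highest wild-type value lay on the same array. For 19 of the 24 members the wild-type maximum lay on Igλ+ replicate 1, among them 9 of the 10 NR4A probe sets, against 33.1% of all probe sets. Some of these were near ties, such as Ier5 at 1417612_at (5800 there and 5625 on Igκ+ replicate 1). Several of the NR4A maxima rest on signals near background. Nr4a2 1433423_at and Nr4a3 1421080_at were at the control level on 3 of the 4 wild-type arrays. Nr4a3 1421079_at was at it on all 4, with 9.76 on Igλ+ replicate 1. Of the 45 other immediate-early genes, 22 were highest on Igλ+ replicate 1. So were 0 of 18 quiescence genes, 6 of 30 mRNA decay genes and 10 of 17 heat shock and stress genes. Igλ+ replicate 1 also had the highest signals of markers of some other blood cells. All 12 measured granulocyte markers and all 7 megakaryocyte and basophil markers were highest there. So were 10 of 13 monocyte and macrophage markers and 6 of 7 erythroid markers. Of T cell markers 6 of 11 were highest there, of NK cell markers 1 of 8 and of plasma cell markers 1 of 6. Summed granulocyte signals were 39629 and 358 on Igλ+ replicates 1 and 2 and 5455 and 346 on Igκ+ replicates 1 and 2. Summed monocyte and macrophage signals were 26639 and 13962 in Igλ+ and 14902 and 13539 in Igκ+ cells. Outside Igλ+ replicate 1 most of this sum came from Ctss and Ms4a6c, which were bright on all wild-type arrays and not highest on that one. Ctss had 9028 and 8390 in Igλ+ and 7943 and 9040 in Igκ+ cells, and Ms4a6c had 4704 and 4957 against 4447 and 3501. Lyz2, the next by wild-type level, had 5921 and 156 in Igλ+ and 1438 and 314 in Igκ+ cells. None of the granulocyte or monocyte markers was at the control level on Igλ+ replicate 1, where on replicate 2 there were 6 and 4. The part of such cells in the member values was not tested.

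**Figure D4:**
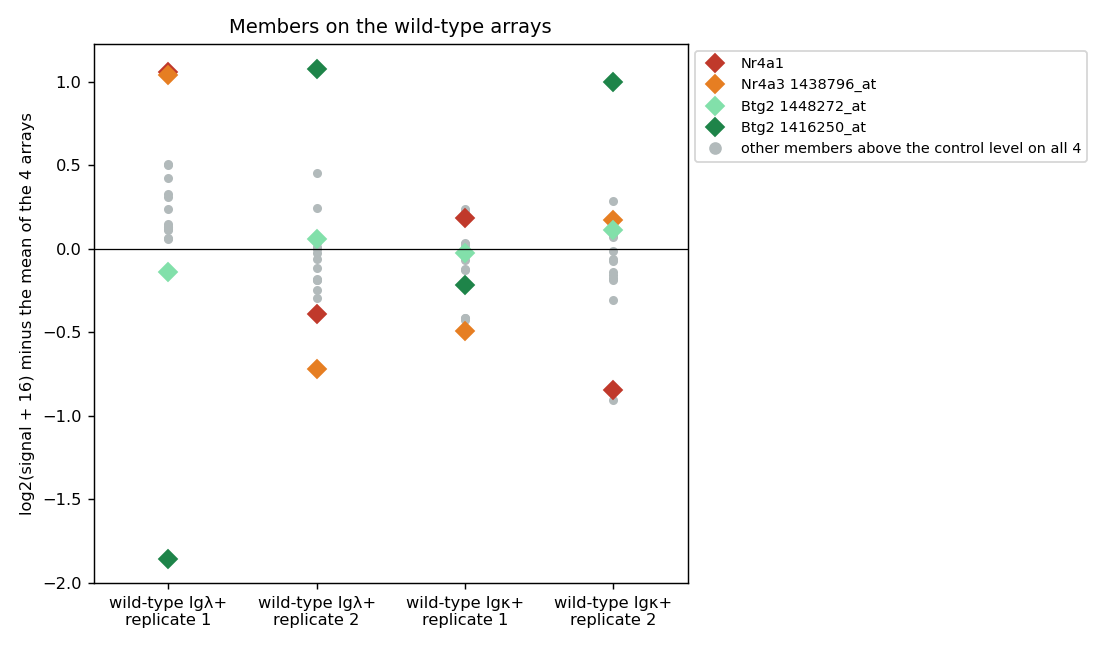
Log2(signal + 16) of member probe sets on each wild-type array, minus the mean of the 4 arrays. Diamonds are Nr4a1, Nr4a3 and the 2 probe sets of Btg2, and grey points are the other members above the control level on all 4 arrays. Nr4a1 and Nr4a3 are highest and Btg2 1416250_at is lowest on Igλ+ replicate 1, whereas Btg2 1448272_at hardly moves.

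The genes most like Nr4a1 across the 4 wild-type arrays were named by the root mean square difference of centred log2 values, over 9427 genes with a wild-type mean of at least 100. They were Mpeg1 (0.031), which encodes the pore-forming protein perforin-2, Dtx4 (0.068), Adgrg1 (0.095), Impdh1 (0.096) and Lrrc56 (0.107). Mpeg1 had 2047 and 741 in Igλ+ and 1118 and 510 in Igκ+ cells, in the same order of arrays as Nr4a1. With 4 arrays such likeness is a description. Among the members Ier2 was nearest to Nr4a1, at 0.481. Fos (5471 and 4537 in Igλ+, 4676 and 2898 in Igκ+ cells) and Jun (4470 and 3245 in Igλ+, 3098 and 1065 in Igκ+ cells) were highest on Igλ+ replicate 1 and lowest on Igκ+ replicate 2 as well, and both were chosen after their values were seen.

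Marker counts between the genotypes are to be read against the deciles as well. Of 9 B cell markers 5 rose and 2 fell in TAK1-deficient Igκ+ cells. Of these 9, 6 lay above the 75th percentile of their decile and 0 below the 25th, with a median distance of 2.10. In TAK1-deficient against wild-type Igκ+ cells, 11 of 12 stromal and endothelial markers rose and 1 fell, with summed signals of 6143 and 6383 in TAK1-deficient and 1363 and 1159 in wild-type Igκ+ cells, and 9 of 11 T cell markers rose and 0 fell (3487 and 4046 against 368 and 262). Of 12 granulocyte markers 3 rose and 0 fell (8724 and 9405 against 5455 and 346). On these arrays dim probe sets were higher in general. In wild-type deciles 3 to 6, which hold the T cell markers, 67.1% to 90.8% of all probe sets were called higher. Against their deciles, 2 of the T cell markers lay below the 25th percentile and 2 above the 75th. These counts were 0 and 6 for stromal and endothelial markers and 1 and 7 for granulocyte markers. Of 6 plasma cell markers 2 rose and 4 fell (2828 and 3145 against 23823 and 15300), of 8 NK cell markers 1 rose and 0 fell, and of 7 erythroid markers 3 rose and 1 fell. Below the 25th percentile of their decile lay 3 plasma cell, 5 NK cell and 3 erythroid markers, and 0 lay above the 75th. Of 13 monocyte and macrophage markers 3 rose and 3 fell, and of 7 megakaryocyte and basophil markers 1 rose and 0 fell. Against their deciles, 3 monocyte and macrophage markers lay below the 25th percentile and 4 above the 75th. These counts were 1 and 0 for megakaryocyte and basophil markers. The part of cells other than B cells in the rise of Nr4a2 and Nr4a3 was not tested.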

How the data were processed

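RNA was measured on 6 Affymetrix arrays. The deposited values are linear array intensities, 1 per probe set. The submitters' processing notes name MAS5, without a version, as the tool behind these deposited intensities. The mean of every deposited array without the lowest and highest 2% of probe sets is 500.0. The number of arrays limits the precision, and detection calls were not used. Replicate 2 is the array whose title ends in "-rep". Whether a group's arrays stem from different animals is not in the labels, so the p-values rest on a spread that may be technical.

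Names come from GEO's platform annotation (34958 probe sets with 1 symbol), and 0 symbols needed updating against RefSeq GRCm38.p6. Signals were taken as log2(signal + 16), which understates differences of dim probe sets. All 45037 probe sets other than controls were tested, without a filter, with limma 3.58.1 in R 4.3.3: a mean per group over all 6 arrays, eBayes with trend, two-sided, Benjamini-Hochberg, threshold 0.05. The code was tested on simulated data. A listed gene is read by its probe set of highest wild-type mean, and up to 4 genes a list were named by wild-type level; others are named as chosen after their values were seen or because a count took them. Members, lists and alternatives were chosen with earlier results of these data known. Alternatives were pseudocounts of 1 and 64, 2 filters at the 40th percentile, 1 probe set per gene, quantile normalization, equal medians, spike-in scaling, the level adjustment (lowess span 0.2), a fit of just the 4 arrays compared, eBayes with no trend, a replicate block, pooled wild-type groups and leaving out each array. Figures used matplotlib 3.10.9.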

Additional observations from a re-analysis of the deposited data

How the results depend on the processing

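In TAK1-deficient against wild-type Igκ+ cells 35414 probe sets were called, against 19882 with the filter on all 6 arrays, 18739 with the filter on the wild-type arrays, 14544 with 1 probe set per gene and 19584 with the level adjustment. Of the members 18 were called, and 8 with 1 probe set per gene (1 higher and 7 lower), where 10 were tested and Nr4a2, then read by 1433422_at, was not called. The filter on the wild-type arrays left 2 higher. Calls as deposited were 25599 higher and 9815 lower, against 12230 higher and 15452 lower under quantile normalization, 13027 higher and 19265 lower under equal medians, 9019 higher and 21332 lower under scaling to the spiked controls, and 10616 higher and 8968 lower after the level adjustment. Members were called 6 higher and 12 lower as deposited, and 5 and 15, 5 and 15, 4 and 16, and 6 and 15 in the same order of scalings. Leaving out an array left 31097 to 33831 probe sets, 16 to 17 members, 6 to 7 higher and 10 to 11 lower. In wild-type Igλ+ against Igκ+ cells 0 probe sets were called, and 0 to 25 when an array was left out (25 without Igλ+ replicate 2), with 0 members in each. The median of all probe sets was 1.53 as deposited, -0.19 with quantile normalization, -0.35 with equal medians, -0.86 after scaling to the spiked controls and -0.01 after the level adjustment.

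At 7 member probe sets the sign in TAK1-deficient against wild-type Igκ+ cells turned and at least 1 of the 2 values passed the threshold. Nr4a2 1433422_at was -1.41 with quantile normalization, -1.30 after spike-in scaling and -1.87 after the level adjustment, which put 1433423_at at -2.06. Nr4a3 1438796_at was -0.64 with spike-in scaling. After the level adjustment 1421080_at was -0.030 and 1421079_at -2.97. Klf6 1418280_at was -2.24 with equal medians and -2.95 when scaled to the spiked controls. Ier5 1417613_at was -1.90 with quantile normalization, -1.69 with equal medians, -2.10 with spike-in scaling and -1.81 after the level adjustment. At 4 of the 7, other settings turned the sign between values that did not pass, at -0.91 to -0.10. The cause was not tested.

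The labels do not say that arrays with the same title suffix belong together, and their deviations from group means had r = 0.0020 (TAK1-deficient with wild-type Igκ+) and 0.194 (wild-type Igλ+ with Igκ+), so they were not taken as pairs. With the replicate block 35603 probe sets and 20 members were called in the first comparison and 0 in the second, and the 2 members added were Nr4a1 (-1.08, limma adjusted p = 0.0238) and Nr4a2 1433423_at (1.10, adjusted p = 0.0431).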
